A study of Homo sapiens with 9 samples.

Results

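Axon guidance receptors and their ligands were measured by RNA sequencing in LAPC4, a human prostate cancer cell line that responds to androgen. Of the 60325 gene rows counted, 9 are described here: the SLIT receptors ROBO1 and ROBO2, the ROBO effector SRGAP1, the EPH receptors EPHA2, EPHA4 and EPHB4, the ephrins EFNA1 and EFNB2, and the exchange factor DOCK3. The genes were chosen by symbol after fitted differences between these same libraries were known, among them those of ROBO2 and DOCK3 between rescue and control. The rescue against control differences of ROBO2 and DOCK3 are therefore given as a description, with no p, and no other result here stands as independent support for the choice. Their differences from knockdown-labelled libraries reuse the rescue or control libraries of that contrast. The p-values given with those differences are not independent of the choice.

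The 9 libraries come from day 30 and form 3 groups of 3. Rescue cells (titled KD4OE) overexpress UGT2B28, a UDP-glucuronosyltransferase that conjugates steroids, on the knockdown background, with 1 mg/mL G418 given as their selection; the labels do not say whether they also received puromycin. Knockdown-labelled cells (KD4) carry the UGT2B28 knockdown alone, with 3 ug/mL puromycin as selection. Control cells (NT) have no drug named. An effect of either drug cannot be told apart from that of the construct selected with it. The labels do not say whether KD4 is 1 clone or a pool, or whether the libraries are from separate cultures. The p-values below thus rest on the spread among 3 libraries a group, which may be technical.

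UGT2B28 had 1139, 1062 and 539 counts in rescue, 63, 70 and 28 in knockdown-labelled and 44, 50 and 76 in control libraries. Its mRNA gave a log2 fold change of -0.04 for knockdown-labelled against control (edgeR adjusted p = 0.957), so the knockdown stands here as a label only. Gene counts summed to between 8132206 and 14185252 per library. Knockdown-labelled library 3 stood apart from the other 2 of its group: mitochondrial transcripts took 15.1%, 15.8% and 10.2% of gene counts in knockdown-labelled libraries 1, 2 and 3, 5.79% to 7.90% in rescue and 7.62% to 8.57% in control. All 10 luminal prostate markers (KLK3 among them) were above 1 count per 1000000 (CPM, scaled by TMM factors) in every group, summing to 5260 to 6410 CPM in rescue, 3690 to 6530 in knockdown-labelled and 4380 to 5480 in control. The 8 neuronal and neuroendocrine markers summed to 25.2 to 37.7, 17.2 to 19.1 and 16.9 to 36.2 CPM in the same 3 groups, with INSM1 and DCX at 0 counts in all libraries. The 6 fibroblast markers summed to 35.4 to 116, 35.8 to 40.1 and 16.8 to 67.7 CPM, and the 4 basal markers to 74.5 to 94.8, 51.6 to 138 and 49.1 to 92.9 CPM, mostly KRT15. The 5 endothelial markers stayed at or below 7.69 CPM in sum, and the 4 leukocyte markers at or below 10.4 CPM with PTPRC and LYZ at 0. The part of any of these in the results below was not tested. In bulk RNA, more cells that express a gene and more RNA per cell cannot be told apart.

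ROBO receptors bind secreted SLIT proteins and steer growing axons and migrating cells away from the source. SRGAP proteins bind the cytoplasmic tail of ROBO and switch off small GTPases that shape the actin skeleton. EPH receptors are tyrosine kinases that meet ephrins on neighbouring cells, where signals run into both cells and often make them part. A-type ephrins are held in the membrane by a lipid anchor and B-type ephrins span it. DOCK3, known mainly from neurons, activates RAC1 and so acts on the same actin machinery. EPHA2 and EPHB4 are also made by many epithelia and have been studied in carcinomas.

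DOCK3, EPHA4 and ROBO2 carried the largest differences, and all 3 had their highest group mean in rescue. The ROBO2 ranges of rescue and knockdown-labelled libraries overlapped. DOCK3 was 3.63-fold higher in rescue than in knockdown-labelled libraries and 4.45-fold higher than in control. EPHA4 was 1.73-fold higher in rescue than in knockdown-labelled libraries, and ROBO2 3.33-fold higher in rescue than in control. By group mean, 7 of the 9 genes were highest in rescue, and the other 2, ROBO1 and EFNA1, in the knockdown-labelled libraries. The 7 include ROBO2 and DOCK3, known to be higher in rescue than in control. The share over all genes was not computed, so nothing is read from this count. In the fit over 16796 genes, 2 of the 9 rose in rescue against knockdown-labelled libraries (DOCK3 and EPHA4), where 9.83% of all genes passed and 4.44% passed as higher. DOCK3 was already known to be high in these rescue libraries, so its call is not independent of the choice. In rescue against control 2 of the 9 passed as higher (DOCK3 and ROBO2, the pair known from this contrast), where 0.149% of all genes passed and 0.143% passed as higher, and nothing is read from that count. None of the 9 passed in knockdown-labelled libraries against control, where 0.00595% of all genes did. In that last comparison, 2 of the 9 (ROBO2 and EPHB4) had an unadjusted p under 0.05, beside 19.1% of all genes, and DESeq2 called 1 (ROBO2), beside 5.93% of all genes.

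**Figure D1:**
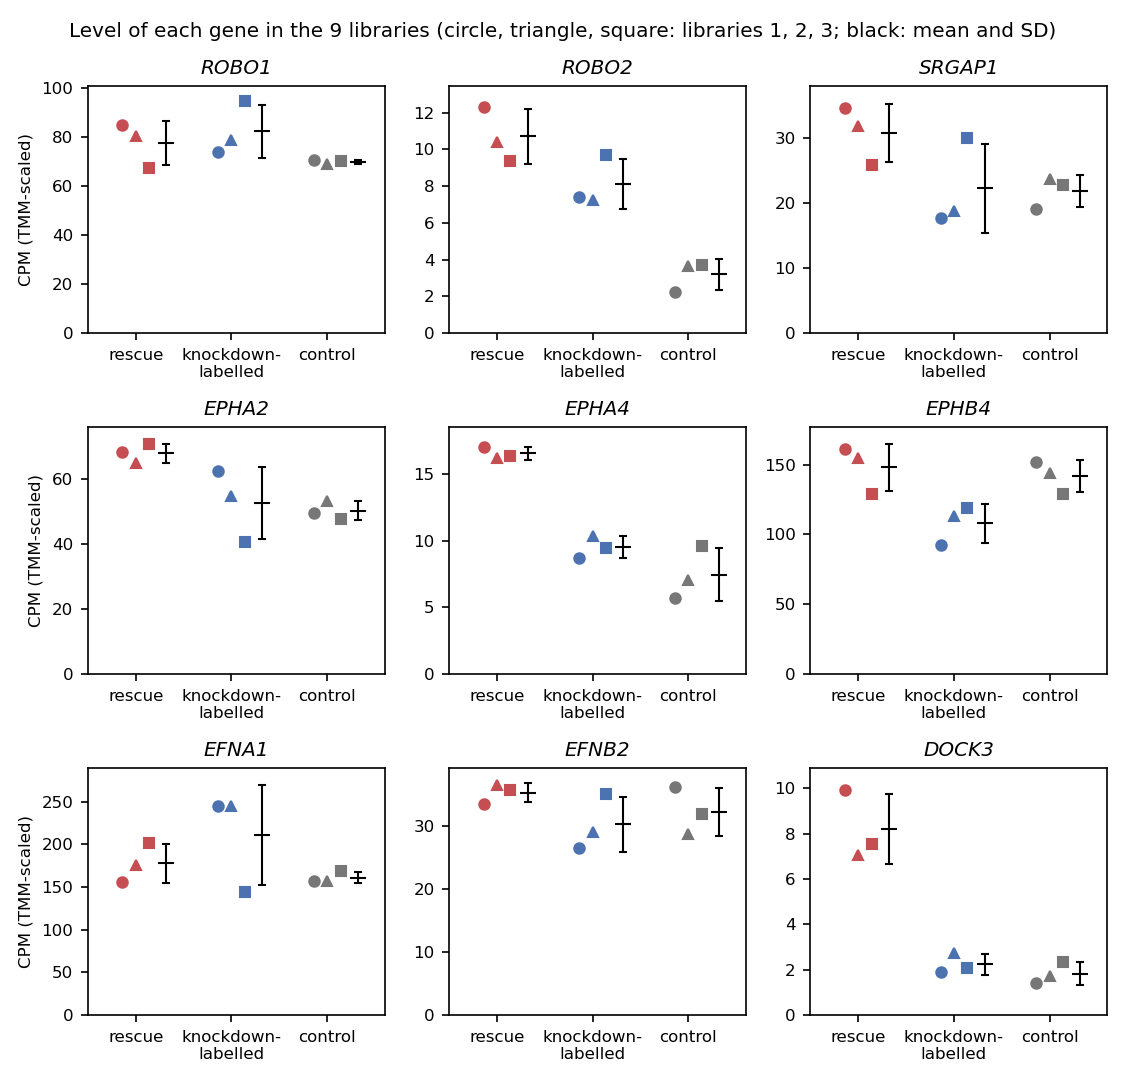
CPM (scaled by TMM factors) of each of the 9 genes in the rescue, knockdown-labelled and control libraries, left to right in each panel; symbols are single libraries and the black mark is the mean with its SD (n = 3). All 3 rescue libraries lie above all others for DOCK3 (7.08 to 9.95 CPM) and EPHA4 (16.2 to 17.1 CPM), and all 3 control libraries lie below all others for ROBO2 (2.21 to 3.69 CPM).

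Ranges of the groups did not overlap for 4 of the 9 genes between rescue and knockdown-labelled libraries (EPHA2, EPHA4, EPHB4 and DOCK3, all higher in rescue), beside 14.6% of all genes higher without overlap. Between rescue and control this held for 5 (ROBO2, SRGAP1, EPHA2, EPHA4 and DOCK3, all higher in rescue), beside 12.8% of all genes; since ROBO2 and DOCK3 were known from this contrast, nothing is read from that count. Between knockdown-labelled and control libraries it held for 3, with ROBO1 and ROBO2 higher and EPHB4 lower, beside 21.2% of all genes in either direction. The median log2 fold change of the 9 was 0.40 in rescue against knockdown-labelled, 0.43 in rescue against control and 0.24 in knockdown-labelled against control. Over all genes tested it was 0.00, -0.01 and 0.02. All 3 medians of the 9 include ROBO2 and DOCK3 and use rescue or control libraries from which that pair was known. Nothing is read from them. Each pair of these comparisons shares the 3 libraries of 1 group.

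**Figure D2:**
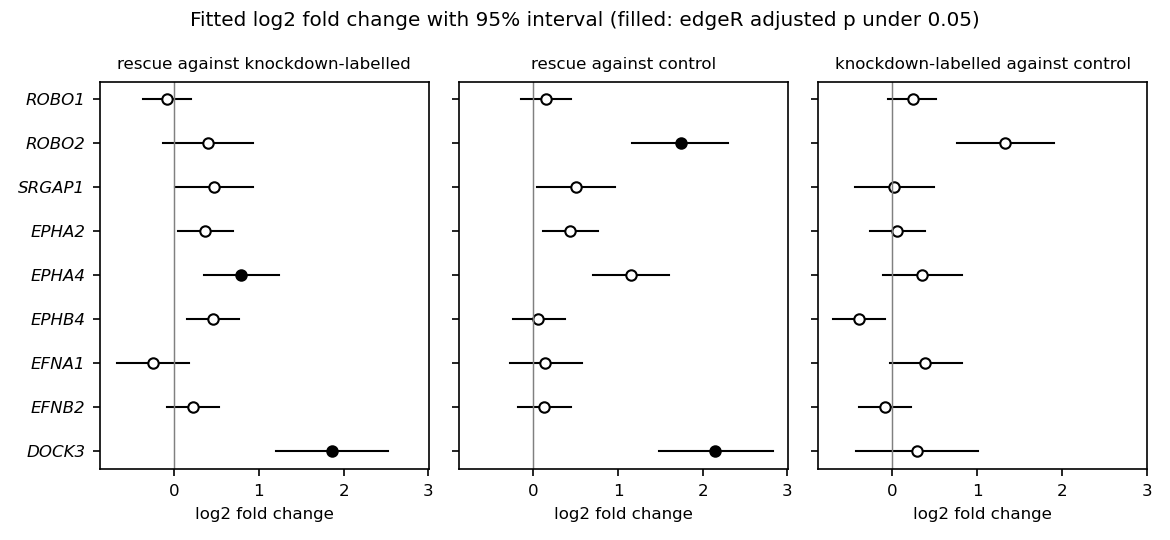
Fitted log2 fold change (x axis) of each gene in the 3 comparisons, with its 95% confidence interval as a line; filled points passed at an edgeR adjusted p under 0.05. DOCK3 lies at 1.86 and 2.15 in the 2 comparisons of rescue, and ROBO2 at 1.74 and 1.33 in the 2 comparisons with control.

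ROBO2 separated the control libraries from both other groups. Its gene spans 75906695 to 77649964 of chromosome 3, plus strand (GRCh38 with GENCODE release 29, as for all positions of genes here). It had 12.3, 10.4 and 9.34 CPM in rescue, 7.40, 7.24 and 9.68 CPM in knockdown-labelled and 2.21, 3.67 and 3.69 CPM in control libraries, from 187, 119 and 94, 55, 82 and 89, and 19, 36 and 36 counts. Every rescue and every knockdown-labelled library exceeded every control, and knockdown-labelled library 3 overlapped the rescue range. The mean was 10.7 ± 1.51 CPM in rescue and 3.19 ± 0.849 CPM in control (SD, n = 3 each), a log2 fold change of 1.74 (SE 0.258, 95% confidence interval 1.17 to 2.30). Knockdown-labelled libraries stood at 8.11 ± 1.37 CPM (SD, n = 3), with 1.33 against control (SE 0.262, interval 0.76 to 1.91, edgeR adjusted p = 0.0733) and rescue at 0.40 against knockdown-labelled (interval -0.13 to 0.93, adjusted p = 0.304). ROBO2 was chosen with these rescue and control libraries known, so both p-values are not independent of the choice.

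The log2 fold change of ROBO2 between rescue and control stayed between 1.53 and 1.85 when any of the 9 libraries was left out. The lowest, 1.53, was without control library 1. Against control, the knockdown-labelled difference of ROBO2 passed without knockdown-labelled library 3 (log2 fold change 1.18, edgeR adjusted p = 0.00247). With library 3 as the sole knockdown-labelled library it was 1.56, in a fit where that group has no spread of its own. In the fits without knockdown-labelled library 3, however, 39.0% of all genes passed for rescue against knockdown-labelled, 7.38% for rescue against control and 32.9% for knockdown-labelled against control.

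ROBO1, the paralog of ROBO2 (chromosome 3, 78597240 to 79767815, minus strand), was the more abundant SLIT receptor in every group. Per kilobase of exon it held 7.14 ± 0.839 CPM in rescue, 7.59 ± 1.00 in knockdown-labelled and 6.44 ± 0.0683 in control libraries, against 0.642 ± 0.0907, 0.487 ± 0.0821 and 0.192 ± 0.0510 for ROBO2 (SD, n = 3). Its libraries spanned 67.5 to 85.0 CPM in rescue, 73.9 to 94.8 CPM in knockdown-labelled and 69.2 to 70.6 CPM in control. The control libraries lay close together, below all 3 knockdown-labelled libraries and within the rescue range. No comparison passed: the log2 fold change was -0.09 for rescue against knockdown-labelled (95% confidence interval -0.37 to 0.20), 0.15 for rescue against control (-0.14 to 0.44) and 0.24 for knockdown-labelled against control (-0.05 to 0.52, adjusted p = 0.350). The first of these turned positive with library size alone (0.14). None of the 100-base stretches of ROBO1 or ROBO2 transcripts occurred in another gene.

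SRGAP1, which joins ROBO to small GTPases, had its highest mean in rescue (chromosome 12, 63844293 to 64162221, plus strand). It stood at 34.5, 31.8 and 25.8 CPM in rescue, 17.6, 18.8 and 30.0 CPM in knockdown-labelled and 19.0, 23.7 and 22.7 CPM in control libraries. Knockdown-labelled library 3 lay inside the rescue range, and libraries 1 and 2 lay below every control. The log2 fold change was 0.47 for rescue against knockdown-labelled (SE 0.209, edgeR adjusted p = 0.168), 0.50 for rescue against control (SE 0.209, adjusted p = 0.431) and 0.02 for knockdown-labelled against control (interval -0.44 to 0.49). Without knockdown-labelled library 3 the first 2 passed, at 0.75 (adjusted p = 8.94e-04) and 0.50 (adjusted p = 0.0332), and knockdown-labelled against control turned to -0.26 (adjusted p = 0.233). In that fit 39.0% and 7.38% of all genes passed in the first 2 comparisons. ENSG00000255629, whose 462 exon bases all lie opposite SRGAP1 exons, had 35 to 70 counts per rescue library, 36 to 63 per knockdown-labelled library and 38 to 54 per control library.

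EPHA4, an EPH receptor that binds ephrins of both classes, was higher in every rescue library than in any other library. It spans 221418027 to 221574202 of chromosome 2, minus strand. It had 17.1, 16.2 and 16.4 CPM in rescue, 8.75, 10.4 and 9.47 CPM in knockdown-labelled and 5.71, 7.04 and 9.64 CPM in control libraries, from 260, 185 and 165, 65, 118 and 87, and 49, 69 and 94 counts. The rescue libraries were nearly level, while control library 3 reached the knockdown-labelled range. EPHA4 rose in rescue against knockdown-labelled libraries, at 16.6 ± 0.501 and 9.54 ± 0.837 CPM (SD, n = 3 each; log2 fold change 0.79, SE 0.202, 95% confidence interval 0.35 to 1.24, edgeR adjusted p = 0.0356). Against control, at 7.46 ± 2.00 CPM (SD, n = 3), rescue stood at 1.15 (SE 0.205, interval 0.70 to 1.60), with an adjusted p of 0.0636 that missed the threshold. Knockdown-labelled against control was 0.35 (interval -0.11 to 0.82, adjusted p = 0.389).

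The EPHA4 rise in rescue against knockdown-labelled libraries stayed between 0.73 and 0.86 on the log2 scale with any library left out. Its adjusted p was 0.0638 without control library 2, 0.102 and 0.0889 without knockdown-labelled library 1 and 2, 0.119, 0.102 and 0.0927 without rescue library 1, 2 and 3, and 0.0710 with only those 2 groups fitted. The difference from control passed without knockdown-labelled library 3 (1.14, adjusted p = 0.00120), with only rescue and control fitted (1.15, adjusted p = 0.00297) and in DESeq2 (1.15, adjusted p = 1.03e-04). Of all genes, 7.38%, 5.87% and 1.94% passed for rescue against control in those settings. An antisense gene shares 4.67% of the EPHA4 exon bases and had at most 11 counts in any library.

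EPHB4, the receptor of EFNB2 in vessel development, was the most abundant of the 3 receptors per kilobase of exon, at 23.0 ± 2.62 CPM per kb in rescue, 16.8 ± 2.17 in knockdown-labelled and 22.0 ± 1.80 in control libraries (SD, n = 3). It spans 100802565 to 100827521 of chromosome 7, minus strand. Its levels were 161, 155 and 129 CPM in rescue, 92.2, 113 and 119 CPM in knockdown-labelled and 152, 144 and 129 CPM in control libraries. All 3 knockdown-labelled libraries lay below every library of the other groups, which overlapped each other. The log2 fold change was 0.46 for rescue against knockdown-labelled (SE 0.138, edgeR adjusted p = 0.0607), -0.39 for knockdown-labelled against control (SE 0.138, adjusted p = 0.167) and 0.06 for rescue against control (95% confidence interval -0.24 to 0.37). Without knockdown-labelled library 3 the first 2 passed, at 0.52 (adjusted p = 0.00124) and -0.46 (adjusted p = 0.00441). In that fit 39.0% and 32.9% of all genes passed in the same 2 comparisons. SLC12A9 shares 69 exon bases with EPHB4 on the other strand.

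EPHA2, the receptor of EFNA1, spans 16124337 to 16156087 of chromosome 1, minus strand. It had 68.4, 65.0 and 70.8 CPM in rescue, 62.6, 54.9 and 40.7 CPM in knockdown-labelled and 49.8, 53.5 and 47.9 CPM in control libraries. The rescue libraries exceeded all others, and knockdown-labelled library 3 was the lowest of the 9. The log2 fold change was 0.37 for rescue against knockdown-labelled (SE 0.149, edgeR adjusted p = 0.134), 0.43 for rescue against control (SE 0.149, adjusted p = 0.324) and 0.06 for knockdown-labelled against control (95% confidence interval -0.27 to 0.39). Rescue against control passed without knockdown-labelled library 3 (0.43, adjusted p = 0.00719), and rescue against knockdown-labelled passed with library size alone (0.65, adjusted p = 0.0122). In these 2 fits 7.38% and 9.27% of all genes passed in the same comparison.

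EFNA1, the main ligand of EPHA2, followed the division within the knockdown-labelled group (chromosome 1, 155127460 to 155134857, plus strand). It stood at 156, 176 and 202 CPM in rescue, 245, 245 and 144 CPM in knockdown-labelled and 157, 157 and 169 CPM in control libraries. Knockdown-labelled libraries 1 and 2 were the highest of the 9, and library 3 was the lowest. Libraries 1 and 2 also held the larger mitochondrial shares of that group (15.1% and 15.8%, against 10.2% in library 3), whose part in this result was not tested. No comparison passed, with a log2 fold change of -0.25 for rescue against knockdown-labelled (edgeR adjusted p = 0.432), 0.14 for rescue against control (95% confidence interval -0.28 to 0.57) and 0.39 for knockdown-labelled against control (adjusted p = 0.297). Without knockdown-labelled library 3, EFNA1 was called lower in rescue than in knockdown-labelled libraries (-0.47, adjusted p = 9.48e-04) and higher in knockdown-labelled than in control libraries (0.61, adjusted p = 1.18e-04). In that fit 39.0% and 32.9% of all genes passed in these comparisons. With library 3 as the sole knockdown-labelled library the signs were the opposite, at 0.33 and -0.19, and with library size alone the first was 0.05.

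EFNB2, the membrane-spanning ligand of EPHB4, had the smallest differences, none beyond 0.22 on the log2 scale in the fit (chromosome 13, 106489731 to 106535662, minus strand). Its libraries spanned 33.5 to 36.5 CPM in rescue, 26.6 to 35.1 CPM in knockdown-labelled and 28.7 to 36.2 CPM in control, and all 3 ranges overlapped. The log2 fold change was 0.22 for rescue against knockdown-labelled (95% confidence interval -0.09 to 0.53), 0.13 for rescue against control (-0.18 to 0.44) and -0.09 for knockdown-labelled against control (-0.40 to 0.22). An antisense gene, ENSG00000284966, overlaps 26.2% of the EFNB2 exon bases. It had 332, 270 and 207 counts in rescue, 72, 101 and 176 in knockdown-labelled and 199, 146 and 152 in control libraries, against 509, 417 and 360, 198, 329 and 323, and 311, 281 and 311 counts for EFNB2. No source used here says whether strand was used in counting, so reads of EFNB2 and of this gene cannot be told apart where they overlap.

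DOCK3 showed the largest difference of the 9 genes in both comparisons of rescue (chromosome 3, 50675241 to 51384198, plus strand). It had 9.95, 7.08 and 7.55 CPM in rescue, 1.88, 2.74 and 2.07 CPM in knockdown-labelled and 1.40, 1.73 and 2.36 CPM in control libraries, from 151, 81 and 76, 14, 31 and 19, and 12, 17 and 23 counts. Every rescue library lay above every other library, and the knockdown-labelled and control ranges overlapped. The mean was 8.20 ± 1.54 CPM in rescue, 2.23 ± 0.449 in knockdown-labelled and 1.83 ± 0.488 in control libraries (SD, n = 3). DOCK3 rose in rescue against knockdown-labelled (log2 fold change 1.86, SE 0.299, 95% confidence interval 1.20 to 2.52, edgeR adjusted p = 0.00909) and stood at 0.29 for knockdown-labelled against control (interval -0.43 to 1.01, adjusted p = 0.671). For rescue against control the log2 fold change was 2.15 (SE 0.305, interval 1.48 to 2.83).

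The DOCK3 difference from knockdown-labelled libraries lost its call without rescue library 1 (1.69, adjusted p = 0.0523) and with only those 2 groups fitted (adjusted p = 0.0546). Between rescue and control the log2 fold change stayed between 1.98 (without rescue library 1) and 2.38 (without control library 3) with any library left out.

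Within each group, DOCK3 and EPHA4 put the 3 libraries in the same order. Rescue libraries ran 1, 3, 2 from high to low for both genes, knockdown-labelled libraries 2, 3, 1 and control libraries 3, 2, 1. ROBO2 put the rescue libraries in the order 1, 2, 3 and knockdown-labelled library 3 on top of its group, as did ROBO1 and SRGAP1 in both groups.

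**Figure D3:**
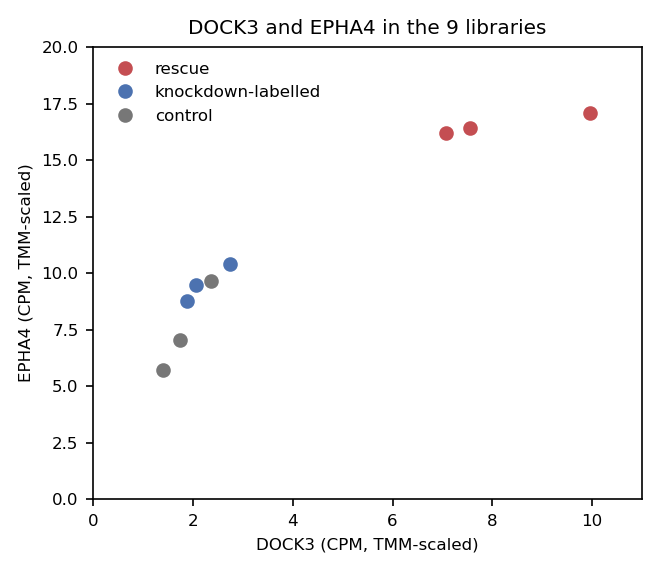
EPHA4 (y axis) against DOCK3 (x axis), both in CPM scaled by TMM factors, with 1 point per library coloured by group. The 3 rescue libraries stand alone at 7.08 CPM of DOCK3 or more, and the other 6 libraries run from 1.40 CPM of DOCK3 with 5.71 CPM of EPHA4 to 2.74 CPM of DOCK3 with 10.4 CPM of EPHA4.

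Among the 12471 other tested protein-coding genes, those most like DOCK3 over the 9 libraries by Pearson correlation of log2 CPM were SLC39A14 (r = 0.989), TMEM127 (0.988) and IGF1R (0.983). IGF1R, the receptor of insulin-like growth factor 1, averaged 12.7 CPM in rescue, 5.55 in knockdown-labelled and 4.62 in control libraries, while the zinc transporter SLC39A14 averaged 130, 98.4 and 96.5 CPM and TMEM127 60.8, 53.1 and 52.8 CPM. Those most like ROBO2 were the transcription factor TFAP2A (r = 0.960), fibronectin FN1 (0.949) and the kinase WNK3 (0.942). FN1 averaged 106, 83.5 and 55.7 CPM and WNK3 9.44, 7.06 and 3.55 CPM in rescue, knockdown-labelled and control libraries, and TFAP2A 192, 177 and 138 CPM. The 9 points share the 3 groups, and the correlation does not depend on the size of a change.

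The promoters of DOCK3, EPHA4 and ROBO2 are shown because these genes carried the largest differences of the 9. All 9 genes matched the RefSeq promoter table (GRCh38.p14), which holds 2 starts each for ROBO1, ROBO2 and EPHA4. In the 250 bases before each start, 2 motifs were searched on both strands: GCGNGGGCG, a form of the EGR1 site, and GGGCGG, the SP1 box. The EGR1 form can overlap the SP1 box, and EGR1 was picked because its own mRNA was known to be higher in rescue (23.9, 98.7 and 23.6 CPM, against 0.135, 0.353 and 1.20 CPM in knockdown-labelled and 0.815, 0.612 and 0.718 CPM in control libraries). All 250 bases were searched, and bases from the first exon base of the same gene on are not printed. Capitals mark the EGR1 form, and each run is printed 5′ to 3′ on the strand of its gene.
DOCK3, chr3:50674677-50674926, plus strand: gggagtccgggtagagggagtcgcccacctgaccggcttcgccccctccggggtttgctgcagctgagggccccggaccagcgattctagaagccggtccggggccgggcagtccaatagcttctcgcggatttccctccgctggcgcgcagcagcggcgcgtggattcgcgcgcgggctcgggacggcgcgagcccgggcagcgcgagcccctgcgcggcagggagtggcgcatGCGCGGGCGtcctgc
EPHA4, inner start, chr2:221572359-221572554, minus strand: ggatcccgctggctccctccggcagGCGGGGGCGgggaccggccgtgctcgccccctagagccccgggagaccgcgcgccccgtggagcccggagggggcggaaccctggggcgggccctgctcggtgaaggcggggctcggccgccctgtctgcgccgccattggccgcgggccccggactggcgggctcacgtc
ROBO2, outer start of the table, chr3:76310630-76310879, plus strand: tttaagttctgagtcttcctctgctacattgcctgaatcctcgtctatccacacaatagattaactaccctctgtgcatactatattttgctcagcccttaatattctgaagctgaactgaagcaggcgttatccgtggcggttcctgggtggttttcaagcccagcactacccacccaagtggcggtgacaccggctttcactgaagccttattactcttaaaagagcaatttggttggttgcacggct

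The EGR1 form occurred in the windows of DOCK3 (-15 to -7, counted from the start), of the inner EPHA4 start (-225 to -217, where it overlaps an SP1 box) and of EFNA1 (-65 to -57, overlapping an SP1 box), and 8.39% of the 34943 distinct windows of the table held it. ROBO2 held the form before neither start, and EPHA4 held it only before the inner start. The windows of the outer EPHA4 start and the inner ROBO2 start are not printed. The SP1 box lay in a window of 7 genes, in all but ROBO1 and DOCK3, and was absent before the outer ROBO2 start. Genes were counted here, some with both of their starts searched, so the 42.5% of all windows that held it is not a like share. A match is a run of letters, not a shown binding site.

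Around these 9 genes, most of the SLIT, ROBO, EPH and ephrin families was expressed in LAPC4 cells. Of 29 family genes, 19 averaged at least 1 CPM, 6 had counts below that level, and 4 (SLIT3, ROBO4, EPHA5 and EPHB1) had 0 counts in all 9 libraries, where 3 counts would be 0.198 to 0.404 CPM. Per kilobase of exon 3 A-type ephrins were the most abundant: EFNA1 held 70.0 ± 8.99, 83.2 ± 23.0 and 63.4 ± 2.58 CPM per kb in rescue, knockdown-labelled and control libraries, EFNA4 46.9 ± 3.21, 72.7 ± 15.2 and 61.8 ± 3.49, and EFNA3 37.3 ± 9.34, 54.2 ± 35.5 and 33.2 ± 0.858 (SD, n = 3). Of the secreted ROBO ligands, SLIT2 averaged 17.0 ± 1.43 CPM in rescue, 15.2 ± 5.24 in knockdown-labelled and 20.4 ± 2.11 in control libraries, with no comparison passing (log2 fold change 0.16, adjusted p = 0.669, for rescue against knockdown-labelled; -0.27, adjusted p = 0.743, for rescue against control).

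**Figure D4:**
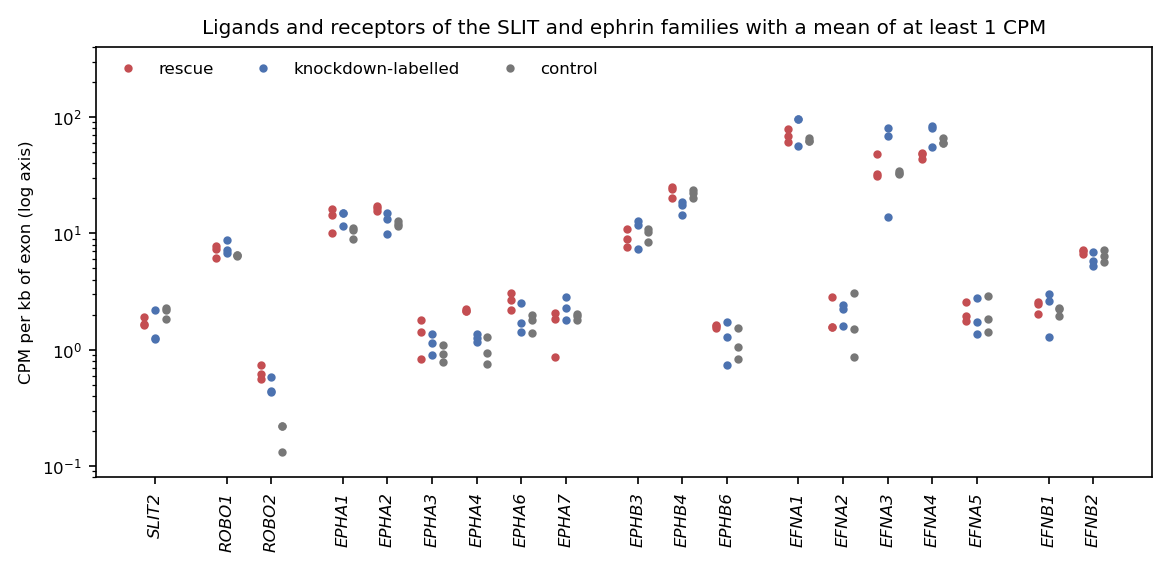
Levels of the 19 SLIT, ROBO, EPH and ephrin genes averaging at least 1 CPM, in CPM per kilobase of exon (log axis), with 1 point per library for rescue, knockdown-labelled and control, left to right at each gene. The ROBO2 points of the control libraries lie below those of both other groups, and 1 knockdown-labelled library (library 3) lies far below the others for EFNA3.

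EFNA4 was the one family gene outside the 9 to pass in any comparison. It fell in rescue to 60.4, 54.7 and 62.5 CPM, against 101, 105 and 69.9 CPM in knockdown-labelled libraries (log2 fold change -0.63, SE 0.152, edgeR adjusted p = 0.0290), and rescue also lay below the control range (75.9, 83.2 and 75.2 CPM; -0.40, adjusted p = 0.375). EFNA3 repeated the division seen for EFNA1, with 59.8, 61.9 and 91.7 CPM in rescue, 154, 130 and 26.4 CPM in knockdown-labelled libraries 1, 2 and 3, and 62.9, 61.9 and 65.1 CPM in control. Of the other EPH receptors, EPHA1 stood at 64.5 ± 15.4 CPM in rescue, 65.3 ± 9.29 in knockdown-labelled and 48.9 ± 5.79 in control libraries, and EPHB3 at 41.5 ± 7.67, 47.8 ± 13.0 and 44.6 ± 6.04 (SD, n = 3). EPHA6 had 19.2, 16.9 and 13.9 CPM in rescue, 8.88, 10.7 and 15.9 CPM in knockdown-labelled and 8.85, 11.3 and 12.7 CPM in control libraries, with rescue above the control range (log2 fold change 0.60, edgeR adjusted p = 0.397). EPHA3, EPHA7 and EPHB6, at 9.03 ± 3.24, 11.9 ± 4.78 and 8.46 ± 0.301 CPM in rescue, and EFNA5 and EFNB1, at 12.1 ± 2.52 and 7.82 ± 0.956 CPM in rescue (SD, n = 3), did not pass in any comparison, nor did EFNA2, the least abundant of them.

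A wider set of 132 guidance genes, listed by their textbook roles and without the 9, held 106 tested genes. In rescue against knockdown-labelled libraries 9 rose and 2 fell, 10.4% of them and near the 9.83% of all genes, with a median log2 fold change of 0.16. The tyrosine kinase SRC, which acts below EPH receptors, rose to 45.8 ± 4.13 CPM in rescue, against 28.9 ± 1.41 in knockdown-labelled libraries (0.66, edgeR adjusted p = 0.0165), with 43.6 ± 5.24 CPM in control (SD, n = 3). The RAC exchange factor VAV2 rose likewise (0.63, adjusted p = 0.0477), the ROBO-binding myosin MYO9B by 0.45 (adjusted p = 0.0220) and the DOCK relative DOCK5 by 0.69 (adjusted p = 0.0365), while the phosphatase ACP1 fell by 0.59 (adjusted p = 0.0465). The other rises were in the semaphorin system, with the receptors PLXNA1 (0.68, adjusted p = 0.0105), PLXNB3 (0.58, adjusted p = 0.0207) and PLXNA3 (0.48, adjusted p = 0.0376) and the ligands SEMA3B (0.54, adjusted p = 0.0198) and SEMA4C (0.54, adjusted p = 0.0316). SRC, VAV2, PLXNA1, PLXNB3, SEMA3B, SEMA4C and MYO9B were lower in each knockdown-labelled library than in any rescue or control library, the order also seen for EPHB4. They were named because they were called higher in rescue than in knockdown-labelled libraries, so their place below rescue follows from that choice. The share of all genes in this order was not computed, and nothing is read from it. The mitochondrial share set the groups apart the other way, with all 3 knockdown-labelled libraries highest, and its part in these results was not tested. These 11 calls depended on the libraries: with 1 library left out, 0 passed without rescue library 1, 1 to 6 without another rescue, a control or knockdown-labelled library 1 or 2, and 42 without knockdown-labelled library 3.

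Against control, none of the 106 passed by edgeR in either comparison. For rescue, 17 had an unadjusted p under 0.05, beside 10.5% of all genes, and DESeq2 called 2, beside 1.94% of all genes. For knockdown-labelled libraries, 20 had an unadjusted p under 0.05, beside 19.1% of all genes, and DESeq2 called 9, beside 5.93%. The list of netrins, their receptors and the RGM ligands of neogenin had 8 tested genes and the highest list median in rescue against control (0.88), with no gene passing. The log2 fold changes of its 8 genes were 2.47 for NTNG2, 1.39 for UNC5A, 1.32 for NEO1, 1.27 for UNC5B, 0.49 for NTNG1, 0.09 for RGMB, -0.27 for NTN4 and -0.54 for RGMA. The largest rest on few counts per control library: 4 to 13 for NTNG2, 5 to 9 for UNC5A, 10 to 24 for NEO1 and 14 to 49 for UNC5B. NTN4 was also low, at 6 to 14, while NTNG1, RGMB and RGMA had 111 to 411. All 8 were named after their values were seen, and their adjusted p lay between 0.112 for NTNG2 and 0.911 for NTN4. The medians of the SLIT and ROBO signalling list, the 6 other tested EPH receptors, the 5 other ephrins, EPH effectors, DOCK and ELMO genes, and semaphorins with their receptors were 0.01, 0.44, 0.12, 0.06, 0.16 and 0.19, beside -0.01 over all genes.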

How the data were processed

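RNA of 9 LAPC4 libraries was sequenced with paired ends, per the labels' protocols. The deposited files hold whole-number read counts per gene symbol, 1 file per library, not normalized by the authors. FastQC, cutadapt, STAR, HTSeq and the hg38 build are named in the submitters' processing notes; versions, annotation and strand setting were not given in the sources used here. Summary rows stayed out of all totals: no feature was found for 43.7% to 48.7% of counts over all rows, 7.67% to 11.6% were multiply aligned, and 2.36% to 3.14% ambiguous.

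The test was edgeR's quasi-likelihood F test (edgeR 4.0.16, R 4.3.3) with TMM factors and filterByExpr (minimum count 10). It ran over 16796 genes with all 9 libraries fitted together, leaving 6 residual degrees of freedom, and 0.05 was the threshold on p after Benjamini-Hochberg adjustment. A standard error is the log2 fold change divided by the root of its F value; confidence intervals are at 95%. No covariate was used: same-numbered libraries did not deviate together, so the replicate numbers were not taken as pairs. Positions and exon lengths come from GENCODE release 29 (GRCh38), whose genes matched 55774 of 60325 rows, and promoters from RefSeq (GRCh38.p14). Correlations used log2 CPM with a prior count of 2.

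The members, gene lists and tests were chosen with earlier results of these data known. Named genes are the 9 members, UGT2B28, every SLIT, ROBO, EPH and ephrin gene of at least 1 CPM, up to 4 passing genes per list and comparison, and the 3 genes most like ROBO2 and DOCK3. PLXNA3, EGR1 and the 8 tested genes of the netrin list were added after their values were seen. The fit was tested on simulated data. Alternatives were DESeq2 1.42.0 (size factors, Wald test), limma 3.58.1 (voom, with and without sample quality weights), library size alone, other filters, fewer groups, a replicate block, a stricter threshold, and libraries left out.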

Additional observations from a re-analysis of the deposited data

How the results depend on the processing

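The log2 fold changes of DOCK3, EPHA4 and ROBO2 kept their sign under every alternative; which members passed did not hold, and the share of all genes passing moved with it. For rescue against control the 2 members passing became 1 with library size alone or limma-voom, 5 in limma-voom with sample quality weights, with only those groups fitted or without knockdown-labelled libraries 1 and 2, 0 with the replicate block or at an adjusted p under 0.01, and 0 to 5 with 1 library left out. For rescue against knockdown-labelled the 2 became 7 with quality weights, 0 with only those groups fitted, 1 with the replicate block or at 0.01, and 0 to 5 with 1 library left out. For knockdown-labelled against control the 0 became 1 without a count filter, in DESeq2 or without knockdown-labelled libraries 1 and 2, 3 with quality weights, and 0 to 3 with 1 library left out. Of the 106 guidance genes tested, the 11 passing for rescue against knockdown-labelled became 19 without a count filter, 18 in DESeq2, 46 with quality weights, 0 with only those groups fitted or at 0.01, 2 with the replicate block, 24 without knockdown-labelled libraries 1 and 2, and 0 to 42 with 1 library left out; the 0 for rescue against control became 6, 2, 18 and 10 in the first 4 of these settings, 10 without knockdown-labelled libraries 1 and 2, and 0 to 11; the 0 for knockdown-labelled against control became 5, 9 and 49 in the first 3, 1 with library size alone, 15 without knockdown-labelled libraries 1 and 2, and 0 to 42. Of all genes tested, 41.7% passed with quality weights, 16.1% in DESeq2, 19.5% without knockdown-labelled libraries 1 and 2, 2.63% with the replicate block and 0.0426% with only those groups fitted for rescue against knockdown-labelled. For rescue against control these shares were 9.47%, 1.94%, 5.27%, 0.0238% and 5.87%, and for knockdown-labelled against control the first 3 were 38.9%, 5.93% and 11.4%. The cause was not tested. Correlations of same-numbered libraries ran from -0.355 to 0.078.

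The signs that turned belonged to differences that did not pass in the fit over all libraries, EFNA1's at up to 0.39 among them. For knockdown-labelled against control, EPHA2 went to -0.20 with library size alone, -0.34 without knockdown-labelled libraries 1 and 2 and between -0.07 (without knockdown-labelled library 1) and 0.22 with 1 library left out; SRGAP1 to -0.15 with library size alone, -0.01 in limma-voom, -0.21 with quality weights, -0.06 without control library 1 and between -0.26 (without knockdown-labelled library 3) and 0.16 with 1 library left out; EFNB2 to 0.10 without knockdown-labelled libraries 1 and 2 and 0.00 without control library 1; EFNA1 to -0.19 without knockdown-labelled libraries 1 and 2. For rescue against knockdown-labelled, ROBO1 went to 0.14 with library size alone and 0.02 with quality weights, without knockdown-labelled library 3 or without rescue library 3 (lowest -0.16, with 1 library left out), and EFNA1 to 0.05 with library size alone and 0.33 without knockdown-labelled libraries 1 and 2. For rescue against control, EPHB4 went to 0.00 without control library 3 (highest 0.16, with 1 library left out). Library size alone moved the median of all genes to 0.24 for rescue against knockdown-labelled and to -0.21 for knockdown-labelled against control. A group left with 1 library is assumed to vary like the others. DOCK3 and ROBO2, at 12 to 36 counts per control library, are the least precisely measured members.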
